A study of Mus musculus with 18 samples.

Results

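The comparison set the uninduced Ncl-1 line against the uninduced EGFP line of CGR8 mouse embryonic stem cells, that is, 2 stable lines before any knockdown was switched on. It used 6 of the 18 arrays of the series, chosen by their labels: 3 replicates of Ncl-1 -Tc and 3 of EGFP -Tc, paired by replicate number. All cells were CGR8, of strain 129P2/Ola, kept for 3 days, and each line carried a stably integrated siRNA that tetracycline (Tc) switches on. In the Ncl-1 line it targets nucleolin, in the EGFP line it targets a jellyfish-derived reporter that mouse cells lack, and neither line had received Tc here. The other 12 arrays hold the same lines with Tc and a second nucleolin line, Ncl-2, without and with Tc. Whether each line is a single clone, and whether replicates are separate cultures, is not given in the labels, so the p-values speak only of the spread among these arrays, and that spread may be technical. RNA was measured on Illumina single-colour bead arrays, and all levels below are log2 signals after background correction and quantile normalization of the deposited probe intensities.

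As background, nucleolin is an abundant nucleolar protein that binds RNA and chromatin and takes part in ribosome production. Embryonic stem cells keep the pluripotent state of the early embryo through transcription factors such as Oct4 (Pou5f1), Sox2 and Nanog, together with LIF, Wnt, Nodal and FGF signals, and a small changing share of them expresses genes of the two-cell embryo. Stable lines derived from the same parent pass through separate selection and culture, so they can differ before any gene is knocked down.

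Mean raw intensity of the 6 arrays ranged from 360 to 734 units, and 19150 to 20825 of 45281 probes were detected on each. The replicate 3 arrays stood apart from the others in both lines. On the first principal component of all 18 arrays, which held 45.6% of the variance, the replicate 3 arrays lay at 67.3 (Ncl-1 -Tc) and 73.6 (EGFP -Tc), and the other 4 arrays between -38.1 and -4.55. Each difference was therefore taken within replicate numbers (a replicate block), and results are also given without the block and without all arrays of replicate 3. Where leaving out a single array ended a call, the array is written E1, E2 or E3 for replicates 1 to 3 of EGFP -Tc and N1, N2 or N3 for those of Ncl-1 -Tc. The number of arrays, 3 per group, limits the precision of every value.

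Both lines carried the signature of embryonic stem cells. All 12 identity markers, among them Pou5f1, Sox2, Nanog, Esrrb and Zfp42, were detected on all 6 arrays, and their summed linear signal was 103886 to 115987 in EGFP -Tc and 123685 to 137247 in Ncl-1 -Tc. The target gene itself did not pass the test before induction. Ncl had log2 levels of 10.90, 11.24 and 11.78 in EGFP -Tc replicates 1 to 3, and of 11.21, 11.80 and 12.10 in Ncl-1 -Tc. The groups overlapped, and the difference of 0.40 ± 0.22 (SE) missed the threshold (adjusted p = 0.31). With Tc, the same line difference was -4.34 ± 0.22 (adjusted p = 5.8e-09). The gene of nucleophosmin, Npm1, also abundant in the nucleolus, differed by -0.06 ± 0.15 (adjusted p = 0.88).

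limma called 910 of 10557 genes (8.62%) at an adjusted p below 0.05, with 434 higher (4.11%) and 476 lower (4.51%) in Ncl-1 -Tc than in EGFP -Tc. Of the 910, 315 differed at least 2-fold, 170 of them higher and 145 lower. The direction was the same in each replicate pair for 909 of them, and for 4859 (46.0%) of all genes. The calls come from these same differences within replicate numbers, so the 909 adds no separate support. The highest 3 and lowest 3 arrays were of different lines for 625 called genes, and for 1459 (13.8%) of all genes. The calls leaned on the pairing: without the replicate block 104 genes passed (62 higher, 42 lower), all of them among the 910. Without all replicate 3 arrays 701 genes passed, of which 528 were shared with the 910, while without replicate 1 or replicate 2 the counts were 90 and 148. When arrays were scaled to equal medians in place of quantiles, the median difference of all genes moved from 0.00 to -0.12, and 279 genes passed, 30.5% of them higher, against 47.7% in the quantile-normalized values.

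A difference seen in every replicate pair followed the chromosomes. Genes on chromosomes 6, 8 and 11 were lower in Ncl-1 -Tc as whole groups, while the medians of the other 17 chromosomes (1 to 19 and X) lay between -0.01 and 0.10. The median log2 difference of the 495 measured genes of chromosome 6 was -0.46, with -0.47, -0.46 and -0.45 in the pairs of replicates 1, 2 and 3. For the 575 genes of chromosome 8 it was -0.27, with -0.26, -0.29 and -0.22. For the 925 genes of chromosome 11 it was -0.32, with -0.24, -0.36 and -0.35. These 3 chromosomes were picked after the values were seen, so the medians from these arrays are a description and have no test.

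Most of the lower genes lay on these chromosomes. On chromosome 6, 127 genes (25.7%) were called lower and 2 higher, and 86.5% of all its measured genes lay below 0. On chromosome 8, 68 were lower and 13 higher, with 74.1% below 0, and on chromosome 11, 118 were lower and 13 higher, with 85.1% below 0. Across all genes 4.51% were called lower and 49.7% lay below 0. Together the 3 chromosomes held 1995 (18.9%) of the genes tested and 313 (65.8%) of the 476 lower genes. Among the 8562 genes elsewhere, 406 were higher and 163 lower. The shift was also present among bright genes (the upper of 3 equal classes of mean signal over all genes), with medians of -0.48, -0.32 and -0.34 on chromosomes 6, 8 and 11 against 0.06 on all others.

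**Figure D1:**
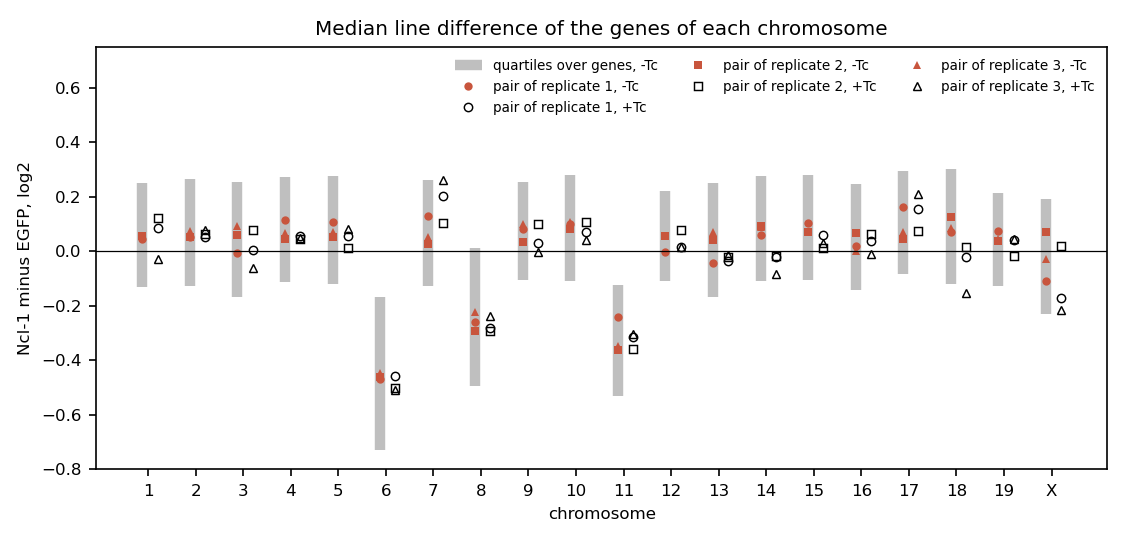
Median log2 difference between the Ncl-1 and EGFP lines (y axis) over the measured genes of each chromosome (x axis), with 1 point per replicate pair without Tc (filled) and with Tc (open), and grey bars for the quartiles over genes without Tc. The 3 pairs lie near -0.46 on chromosome 6, from -0.29 to -0.22 on chromosome 8 and from -0.36 to -0.24 on chromosome 11.

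The other arrays of the series gave the following medians for these chromosomes. Between Ncl-1 +Tc and EGFP +Tc, which are 6 separate arrays of the same lines, the medians were -0.49, -0.26 and -0.35 for chromosomes 6, 8 and 11, and -0.15 to 0.17 for the other 17 chromosomes. The Ncl-2 line against the same EGFP -Tc arrays gave -0.44, -0.22 and -0.30, a comparison that shares its controls with the one above. Ncl-1 -Tc against Ncl-2 -Tc gave 0.01, -0.03 and -0.01, and EGFP +Tc against EGFP -Tc gave -0.01, 0.00 and 0.01. Seen per array, relative to the mean of the 6 arrays of the same replicate number, the median chromosome 6 gene lay at 0.29 to 0.33 in the 6 EGFP arrays and at -0.23 to -0.07 in the 12 arrays of the nucleolin lines. On chromosome 8 these ranges were 0.13 to 0.19 and -0.13 to -0.01, and on chromosome 11 they were 0.18 to 0.24 and -0.14 to -0.08. On each of the 3 chromosomes every EGFP array was above every nucleolin-line array. DNA copy number was not measured.

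**Figure D2:**
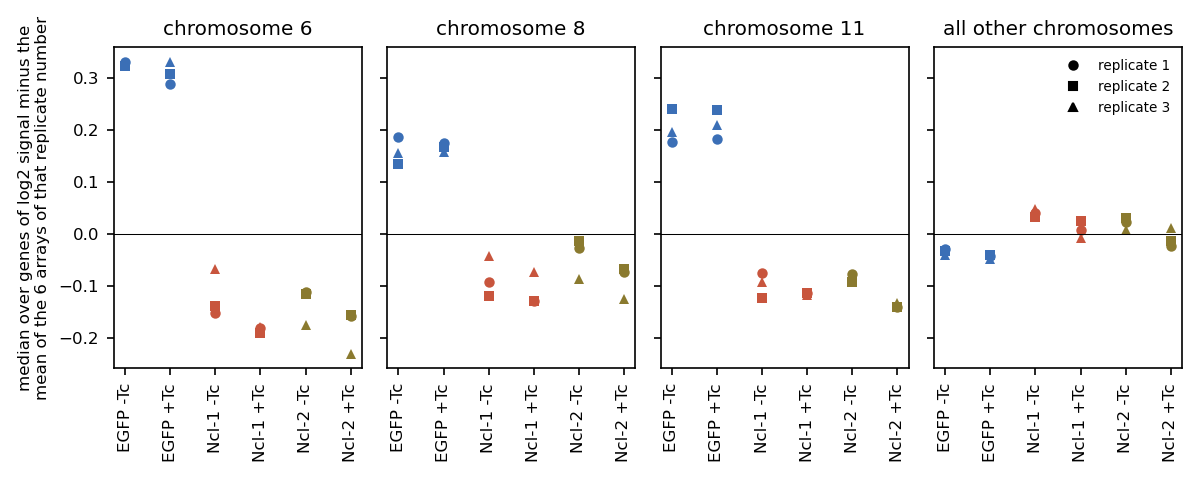
Level of the median gene of chromosomes 6, 8 and 11 and of all other chromosomes (log2, y axis) in each of the 18 arrays, relative to the mean of the 6 arrays with the same replicate number, with 1 point per array and groups along the x axis. EGFP arrays lie at 0.13 to 0.33 and the nucleolin-line arrays below 0 on chromosomes 6, 8 and 11.

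Along the gene order the shift was even on chromosome 11 and stepped on chromosomes 6 and 8. The order was taken from RefSeq, and the steps were placed after the values were seen, so the values of the stretches have no test. On chromosome 11 the median of 41 neighbouring genes stayed below 0 in all 885 windows, between -0.50 and -0.22. On chromosome 6 it stayed below 0 in all 455 windows, from -0.78 to -0.19, with a deeper middle stretch from Tmem209 to Trh. The 223 genes of that stretch had a median of -0.67, a 1.59-fold lower signal, and 98 of them (43.9%) were called lower and 0 higher. The 56 genes before it, from Samd9l, had a median of -0.25 and the 216 genes after it, to Resf1, -0.32. In the pairs of replicates 1 to 3 the middle stretch had -0.66, -0.64 and -0.70, and with Tc -0.70.

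On chromosome 8 the shift ended before the end of the chromosome. The 453 genes from Insr to Psmd7 had a median of -0.35, with 68 called lower and 6 higher, and the 122 genes from Zfhx3 to Itgb1 had 0.17, with 0 lower and 7 higher. Of the 10 measured genes before the step, from Pdf to Psmd7, all 10 lay below 0 with a median of -0.38, and of the next 10 genes, from Zfhx3, 5 lay below 0 with a median of 0.15. In the pairs of replicates 1 to 3 the long stretch had -0.36, -0.39 and -0.31 and the end of the chromosome 0.16, 0.05 and 0.24. With Tc these 2 stretches had -0.38 and 0.07. For scale, the other 17 chromosomes, each split into 4 runs of genes (68 in all), had medians between -0.09 and 0.15.

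**Figure D3:**
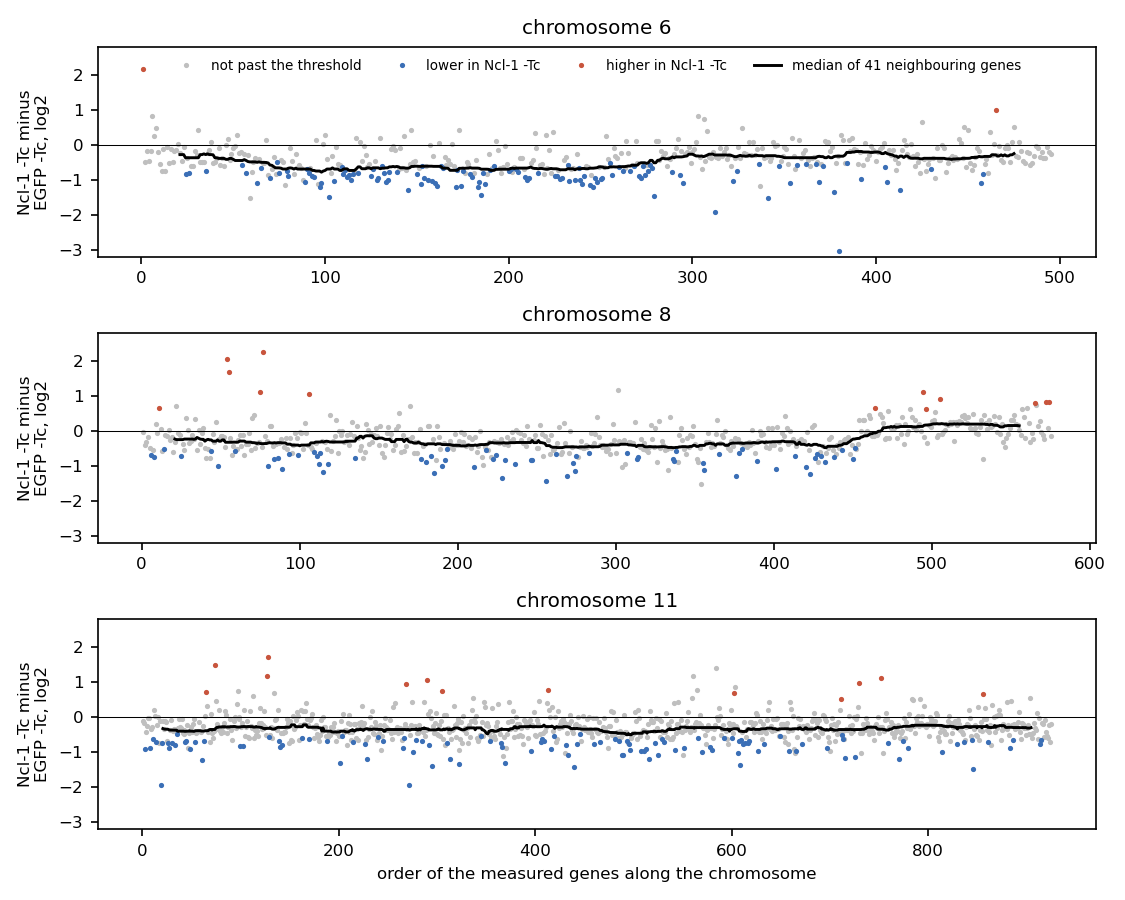
Log2 difference between Ncl-1 -Tc and EGFP -Tc (y axis) of each measured gene of chromosomes 6, 8 and 11 in chromosome order (x axis), coloured by call, with the median of 41 neighbouring genes as a black line. The line is below 0 along all of chromosomes 6 and 11 and crosses 0 near the end of chromosome 8.

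Among single lower genes of these chromosomes, those of this paragraph were chosen after their values were seen, for small p. On chromosome 11 other lower genes, among them Prr15l, Aloxe3 and Rad51d, had smaller p than Sphk1, the gene shown. Plxnd1, a semaphorin receptor on chromosome 6, had 6.13, 6.41 and 6.57 in EGFP -Tc and 4.91, 4.78 and 4.82 in Ncl-1 -Tc, where 1 of 3 arrays detected it. The groups did not overlap, and the difference was -1.54 ± 0.16 (adjusted p = 0.00011). Kbtbd2, also on chromosome 6, a Kelch-domain adaptor of an ubiquitin ligase, had 10.36, 10.12 and 10.30 against 9.19, 9.06 and 9.21, a difference of -1.11 ± 0.14 (adjusted p = 0.00026). On chromosome 8 Gab1, a docking protein of growth factor receptors, had 13.47, 13.53 and 13.90 in EGFP -Tc and 12.10, 12.20 and 12.79 in Ncl-1 -Tc. It differed by -1.27 ± 0.16 (adjusted p = 0.00032), without overlap. Sphk1, a sphingosine kinase on chromosome 11, had 7.95, 7.53 and 7.32 against 6.55, 5.74 and 6.08, a difference of -1.48 ± 0.23 (adjusted p = 0.0013, and 0.074 without the block). With Tc the same line differences were -1.46 ± 0.16, -0.91 ± 0.14, -1.60 ± 0.16 and -2.18 ± 0.23. Other lower genes did not all keep their difference with Tc. Prr15l went from -1.36 ± 0.21 to 1.72 ± 0.21, and Capg of chromosome 6 from -1.42 ± 0.21 to -0.20 ± 0.21. With Tc Aloxe3 had -0.89 ± 0.21 and Rad51d -0.50 ± 0.15, and on chromosome 6 Mrpl35 had -2.13 ± 0.16 and Mob1a -1.13 ± 0.15. On chromosome 8 Psmb10 had -2.03 ± 0.22, Lpar2 -1.15 ± 0.16, Lsm1 -0.78 ± 0.15 and Nr2f6 -1.09 ± 0.16.

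Some genes of the 3 chromosomes went against the shift. Samd9l, an interferon-inducible gene at the start of the measured part of chromosome 6, was among the 15 largest rises (2.17 ± 0.24), and Slco1b2, an organic anion transporter on the same chromosome, was at least 1.51-fold higher, since no EGFP -Tc array detected it (adjusted p = 0.011). On chromosome 11 the growth restrainer Grb10 had 12.01, 12.01 and 11.57 in EGFP -Tc and 13.06, 13.40 and 13.66 in Ncl-1 -Tc, a difference of 1.51 ± 0.19 (adjusted p = 0.00031). Its second probe gave 1.22 ± 0.23 (adjusted p = 0.0046). The neuronal vesicle gene Nsg2 (1.74 ± 0.43) and the microtubule-binding protein gene Mapt (1.13 ± 0.28) were also higher. The Slco1b2 call was lost without E1, the Nsg2 call without E2, N1 or N2, and the Mapt call without E3 or any Ncl-1 -Tc array. Without the block these 3 calls were lost (adjusted p = 0.13, 0.087 and 0.57). Slco1b2, Nsg2 and Mapt were chosen after their values were seen.

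The largest rises lay on many chromosomes and were mostly of genes that are dim in the EGFP line. Ms4a6d, a membrane-spanning protein gene of the MS4A family, had log2 levels of 5.89, 6.10 and 5.38 in EGFP -Tc and 8.67, 8.57 and 8.21 in Ncl-1 -Tc. The groups were far apart, and the difference of 2.69 ± 0.28 was a 6.46-fold higher signal (adjusted p = 0.00011). Its dimmer second probe gave 1.18 ± 0.37 (adjusted p = 0.066). Tenm4, a large cell-surface teneurin, had 8.52, 8.80 and 8.52 against 10.85, 10.36 and 10.90, a difference of 2.09 ± 0.24 (adjusted p = 0.00018). Its 2 dimmer probes gave 1.66 ± 0.25 and 0.64 ± 0.24, and the second of these missed the threshold (adjusted p = 0.12). 1700030C10Rik, a gene without an assigned function, had 7.77, 7.77 and 7.85 against 9.93, 10.04 and 10.32, a difference of 2.30 ± 0.27 (adjusted p = 0.00023).

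Other large rises follow. Abca14, a lipid-type ABC transporter, was higher by 2.37 ± 0.46, the cytochrome P450 gene Cyp2b23 by 2.32 ± 0.39, and Rsph4a, a radial spoke protein of motile cilia, by 2.30 ± 0.35. Clca3b, of the calcium-activated chloride channel regulators, was higher by 2.28 ± 0.36, and Adam32, a sperm membrane protein gene on chromosome 8, by 2.26 ± 0.30. Wdr64 was higher by 2.12 ± 0.31, with 2 of 3 EGFP -Tc arrays detecting it. The 3 Ncl-1 -Tc arrays were above the 3 EGFP -Tc arrays for each of these 6 genes. The groups did not overlap for 625 of the 910 called genes and 13.8% of all genes. The rule that chose the largest rises uses this trait, so it adds no separate support. The Abca14 and Clca3b calls were lost without all arrays of replicate 1 (adjusted p = 0.11 and 0.071) or replicate 2 (0.10 and 0.063). Those of Cyp2b23 and Rsph4a were lost without all arrays of replicate 2 (0.065 and 0.070). Igfbp7, a secreted binding protein of insulin-like growth factors, was higher by 2.16 ± 0.53 (adjusted p = 0.019, and 0.58 without the block), with levels of 6.11, 6.20 and 7.55 against 7.79, 8.85 and 9.72. The Igfbp7 call was lost without E2, E3, N1 or N2 (adjusted p up to 0.097). It was also lost without replicate 2 (0.23) or replicate 3 (0.056) in all groups, and under median scaling (0.057).

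**Figure D4:**
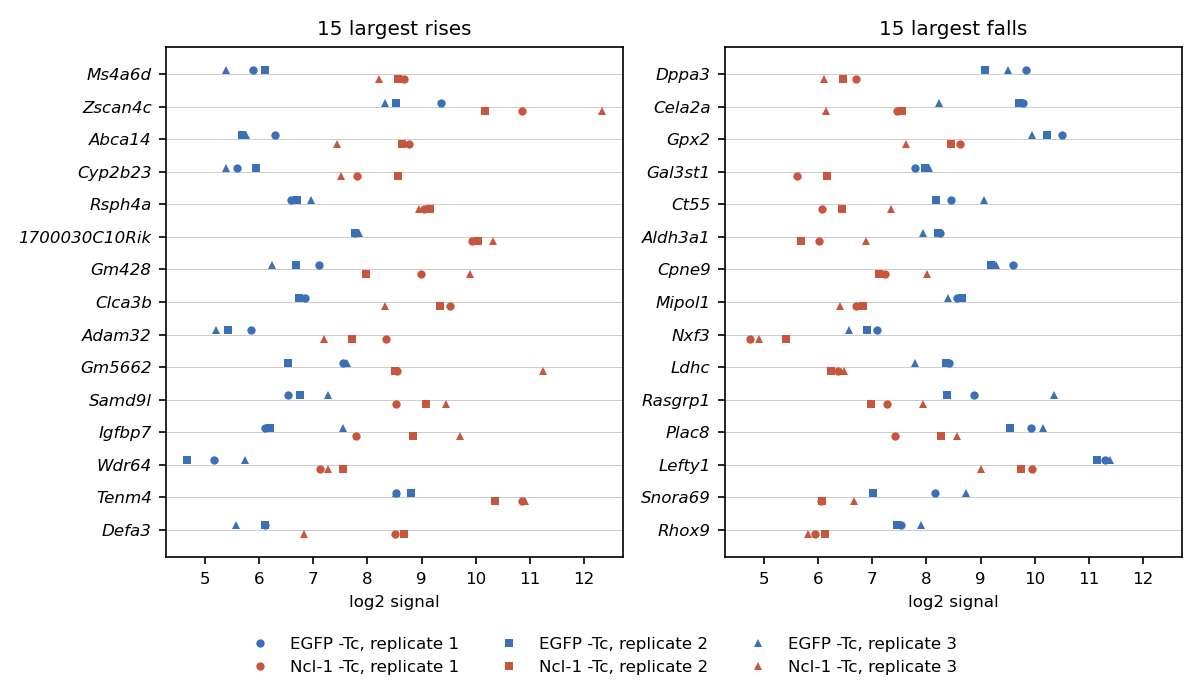
Log2 signal (x axis) of the 15 called genes with the largest rise and the 15 with the largest fall (rows) on each EGFP -Tc array (blue) and each Ncl-1 -Tc array (red), with a marker shape per replicate number. For Ms4a6d the Ncl-1 -Tc arrays lie at 8.21 or above and the EGFP -Tc arrays at 6.10 or below, and for Dppa3 they lie at 6.71 or below and at 9.08 or above.

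Several of the rises were of genes with near-identical copies, for which probe specificity between copies was not tested. The membrane protein gene Tmem181a had 9.39, 9.29 and 9.58 in EGFP -Tc and 10.99, 11.03 and 12.12 in Ncl-1 -Tc, a difference of 1.96 ± 0.20 (adjusted p = 0.00011). Tmem181c-ps, annotated as a pseudogene on the same chromosome 17, was higher by 1.80 ± 0.22 (adjusted p = 0.00026). Both measured alpha-defensins, antimicrobial peptides of intestinal Paneth cells, were higher, Defa3 by 2.07 ± 0.41 and Defa20 by 1.68 ± 0.41 (adjusted p = 0.0063 and 0.018). The Defa20 call was lost without the block (0.19) and without E1, E3, N1 or N2, and the Defa3 and Defa20 calls without all arrays of replicate 1 (0.14 and 0.19) or replicate 2 (0.13 and 0.14). Families were gathered after their values were seen.

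Of 15 measured genes of the two-cell embryo 3 were higher and 1 lower in Ncl-1 -Tc, where 4.11% of all genes were higher and 4.51% lower. The 3 higher genes had their largest differences in the replicate 3 pair. Zscan4c, a zinc finger gene of the two-cell embryo that is switched on briefly in a small share of embryonic stem cells, had 9.36, 8.52 and 8.32 in EGFP -Tc and 10.85, 10.18 and 12.34 in Ncl-1 -Tc. The groups did not overlap, the pair differences were 1.5, 1.65 and 4.02, and the fitted difference was 2.39 ± 0.55 (adjusted p = 0.013, and 0.094 without the block). In bulk RNA such as this, more cells in that state and more RNA per cell cannot be told apart. Its dimmer second probe gave 1.16 ± 0.55, which missed the threshold (adjusted p = 0.24). The other higher genes were Gm5662 (2.19 ± 0.46, pairs 0.98, 1.97 and 3.62) and Pramel16 (1.93 ± 0.45, pairs 1.15, 1.36 and 3.28), whose adjusted p without the block was 0.14 and 0.074, and the lower gene was Dppa3. Gm428, which is not on this list, was among the 15 largest rises (2.28 ± 0.48, adjusted p = 0.0088, 0.085 without the block and 0.051 without E3). The list's median was 0.39, with 0.30, 0.09 and 0.85 in the pairs of replicates 1, 2 and 3, beside 0.00 for all genes. The Zscan4c and Pramel16 calls were lost without E3 (adjusted p = 0.062 and 0.081) or N3 (0.058 and 0.077), and also without all arrays of replicate 1 (0.11 and 0.12) or replicate 2 (0.091 and 0.084), but not without those of replicate 3. The Gm5662 and Gm428 calls were likewise lost without all arrays of replicate 1 (0.059 and 0.13) or replicate 2 (0.094 and 0.054).

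Of 12 measured Pramel genes, a family of leucine-rich repeat proteins expressed in germ cells and early embryos, 5 were higher and 0 lower, with a median of 1.11, where 4.11% of all genes were higher and 4.51% lower. Pramel20, on chromosome 4, had 5.70, 5.19 and 5.36 in EGFP -Tc and 6.76, 6.5 and 8.58 in Ncl-1 -Tc, a difference of 1.87 ± 0.43 (adjusted p = 0.014), and Pramel31 was higher by 1.5 ± 0.41 (adjusted p = 0.033). Pramel14 (1.07 ± 0.24) and Pramel30 (1.15 ± 0.24) were higher as well, and 2 of 3 EGFP -Tc arrays detected each. Without the block these 4 calls were lost (adjusted p = 0.11 to 0.74), as they were without all arrays of replicate 1 (0.10 to 0.16) or replicate 2 (0.060 to 0.14). The Pramel20 call was also lost without either replicate 3 array, the Pramel14 call without these or E1, and the Pramel31 call without these or E1 or E2. The upstream sequences of these 4 genes, of Pramel16 and of Zscan4c are shown so that the differences of near-identical family members can be set beside their sequence. They are the 250 bases before the RefSeq transcription start on GRCm38.p6, and capitals mark TATAAA, the letters of the TATA box:
Zscan4c, chr7:11005495-11005744, plus strand: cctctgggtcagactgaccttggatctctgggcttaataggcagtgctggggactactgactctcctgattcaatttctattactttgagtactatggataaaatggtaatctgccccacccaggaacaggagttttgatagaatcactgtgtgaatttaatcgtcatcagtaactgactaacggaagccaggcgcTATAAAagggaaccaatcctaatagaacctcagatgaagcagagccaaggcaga
Pramel20, chr4:143567217-143567466, plus strand: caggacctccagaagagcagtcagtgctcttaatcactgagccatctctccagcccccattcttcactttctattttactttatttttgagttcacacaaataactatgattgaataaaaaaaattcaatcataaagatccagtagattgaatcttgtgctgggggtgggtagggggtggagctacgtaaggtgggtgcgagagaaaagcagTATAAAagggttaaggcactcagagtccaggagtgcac
Pramel31, chr4:144357714-144357963, plus strand: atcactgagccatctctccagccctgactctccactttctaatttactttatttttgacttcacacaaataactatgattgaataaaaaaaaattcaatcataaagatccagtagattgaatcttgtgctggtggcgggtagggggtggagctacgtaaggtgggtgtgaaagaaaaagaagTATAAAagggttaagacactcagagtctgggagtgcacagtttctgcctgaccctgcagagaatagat
Pramel14, chr4:143994370-143994619, minus strand: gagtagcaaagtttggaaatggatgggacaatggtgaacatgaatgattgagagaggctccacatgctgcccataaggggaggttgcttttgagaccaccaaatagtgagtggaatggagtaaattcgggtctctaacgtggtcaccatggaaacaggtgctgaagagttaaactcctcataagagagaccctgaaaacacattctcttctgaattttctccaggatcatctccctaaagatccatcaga
Pramel30, chr4:144329999-144330248, plus strand: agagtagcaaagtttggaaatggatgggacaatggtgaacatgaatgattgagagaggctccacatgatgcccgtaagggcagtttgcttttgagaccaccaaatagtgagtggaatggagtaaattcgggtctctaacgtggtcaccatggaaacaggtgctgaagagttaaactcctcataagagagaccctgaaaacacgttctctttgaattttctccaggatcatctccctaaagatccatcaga
Pramel16, chr4:143951017-143951266, minus strand: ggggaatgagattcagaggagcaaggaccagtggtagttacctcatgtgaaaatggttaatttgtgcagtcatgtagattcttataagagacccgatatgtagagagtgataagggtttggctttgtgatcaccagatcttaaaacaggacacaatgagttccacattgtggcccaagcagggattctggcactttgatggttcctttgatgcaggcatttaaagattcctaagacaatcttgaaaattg

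Of the 5 Pramel sequences 4 formed 2 pairs, and that of Pramel16 was identical to the others at 47.7% to 61.3% of aligned bases. Pramel20 and Pramel31 were identical at 204 of 218 aligned bases (93.6%), and Pramel14 and Pramel30 at 244 of 249 (98%), while Pramel20 and Pramel14 shared 58.3%. TATAAA stood on the gene strand 38 bases before the start in Pramel20, 68 bases before it in Pramel31 and 54 bases before it in Zscan4c, and these letters were in none of Pramel14, Pramel16 and Pramel30. On the gene strand the motif was present in 7.59% of 32851 RefSeq upstream windows of the same length, and on either strand in 12.4%. These letters are a description of the window and say nothing of factor binding. In the replicate 3 pair the differences were 3.23 for Pramel20, 2.76 for Pramel31 and 4.02 for Zscan4c, which hold these letters. In the same pair they were 1.59 for Pramel14, 1.66 for Pramel30 and 3.28 for Pramel16, which do not. In the replicate 1 pair the Pramel genes with these letters had 1.06 (Pramel20) and 0.80 (Pramel31). Those without them had 0.98 (Pramel14), 0.91 (Pramel30) and 1.15 (Pramel16). In the replicate 2 pair the genes with these letters had 1.31 (Pramel20), 0.96 (Pramel31) and 1.65 (Zscan4c). Those without them had 0.63 (Pramel14), 0.88 (Pramel30) and 1.36 (Pramel16) there. Whether the differences follow these letters was not tested.

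The largest fall was that of Dppa3 (Stella), a maternal factor that protects methylation marks in the zygote and marks naive stem cells and germ cells. It lies on chromosome 6 and had 9.84, 9.08 and 9.51 in EGFP -Tc and 6.71, 6.47 and 6.11 in Ncl-1 -Tc. The difference of -3.05 ± 0.39, an 8.29-fold lower signal, had an adjusted p of 0.00031, and the median of its stretch of the chromosome was -0.32. With Tc the line difference was -0.68 ± 0.39 (adjusted p = 0.19), and the difference between the 2 states, 2.37 ± 0.55, passed the test (adjusted p = 0.012).

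Other large falls follow. Cela2a, a pancreatic elastase, had 9.78, 9.71 and 8.23 in EGFP -Tc and 7.45, 7.55 and 6.14 in Ncl-1 -Tc, a difference of -2.19 ± 0.24 (adjusted p = 0.00013, and 0.11 without the block). Gpx2, a glutathione peroxidase of the gut, had 10.51, 10.23 and 9.95 against 8.62, 8.46 and 7.62, a difference of -2.0 ± 0.25 (adjusted p = 0.00031). Neither gene's groups overlapped. Gal3st1, the sulfotransferase that makes sulfatide, (-1.95 ± 0.27) and the aldehyde dehydrogenase Aldh3a1 (-1.94 ± 0.24) were lower, both on chromosome 11. The copine gene Cpne9 of chromosome 6 (-1.91 ± 0.28) and Mipol1 of chromosome 12 (-1.89 ± 0.25) were lower as well.

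Of genes known for expression in testis and other germline tissue, Ct55, a cancer/testis antigen, was lower by both its probes (-1.95 ± 0.25 and -1.65 ± 0.19). Ldhc, the lactate dehydrogenase of sperm, had 8.43, 8.37 and 7.78 in EGFP -Tc and 6.38, 6.23 and 6.47 in Ncl-1 -Tc, a difference of -1.83 ± 0.19 (adjusted p = 0.00011), and both its other probes were lower (-1.21). Nxf3, an X-linked relative of the mRNA export factors, was lower (-1.84 ± 0.24), with 1 of 3 Ncl-1 -Tc arrays detecting it. Rasgrp1, an activator of Ras (-1.81 ± 0.42), Plac8 (-1.80 ± 0.31) and the small nucleolar RNA Snora69 (-1.71 ± 0.49) were also lower. Without the block the calls of these last 3 were lost (adjusted p = 0.18, 0.15 and 0.51). The Rasgrp1 call was also lost without E1, E3 or N2, and the Snora69 call without any of the 6 arrays but E2 (adjusted p up to 0.21).

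Germ cell genes moved in both directions. Of 13 measured members of the germ cell list 3 were higher and 3 lower, with a median of 0.33. Of all genes 4.11% were higher and 4.51% lower, with a median of 0.00. Rhox9, a homeobox gene of the X-linked reproductive cluster, had 7.54, 7.45 and 7.89 in EGFP -Tc and 5.95, 6.12 and 5.81 in Ncl-1 -Tc, a difference of -1.67 ± 0.20 (adjusted p = 0.00024). Rhox6 of the same cluster was at least 1.62-fold lower, since no Ncl-1 -Tc array detected it (adjusted p = 0.0013), and the other lower gene was Dppa3. The higher genes were Dazl, an RNA-binding protein of germ cells (0.91 ± 0.22), Taf7l, a germline subunit of the general transcription machinery (0.91 ± 0.21), and the piRNA helicase gene Mov10l1 (0.80 ± 0.19). These 3 calls were lost without the block (adjusted p = 0.18 to 0.34) and without N3, among other single arrays. The summed signal of the list was 7376 to 10663 in EGFP -Tc and 9223 to 15221 in Ncl-1 -Tc.

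The core pluripotency factors did not pass the test. Pou5f1 had 13.12, 13.04 and 11.66 in EGFP -Tc and 13.74, 13.39 and 12.26 in Ncl-1 -Tc, a difference of 0.52 ± 0.18 (adjusted p = 0.088). Sox2 differed by 0.17 ± 0.18 (adjusted p = 0.67) and Nanog, on chromosome 6, by 0.27 ± 0.22 (adjusted p = 0.52). Of the 30 measured naive pluripotency genes 2 were higher and 1, Dppa3, was lower, with a median of 0.23. Of all genes 4.11% were higher and 4.51% lower, with a median of 0.00. Tfcp2l1, a transcription factor of the naive network, had 12.31, 12.17 and 12.80 against 13.05, 13.07 and 14.02, a difference of 0.95 ± 0.17 (adjusted p = 0.0039, and 0.17 without the block). Klf5, a zinc finger factor of the same network, was higher by 0.63 ± 0.16 (adjusted p = 0.02). The Klf5 call was lost without the block (0.17), without E1 or E3, or without N1 or N3.

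Among signalling pathways, both Nodal inhibitors of the Lefty type were lower. Lefty1, which is secreted and limits Nodal signalling, had 11.30, 11.14 and 11.38 in EGFP -Tc and 9.94, 9.75 and 9.01 in Ncl-1 -Tc. The difference was -1.71 ± 0.31, a 3.27-fold lower signal (adjusted p = 0.0041), and the groups were well apart. The Lefty1 call was lost without all arrays of replicate 1 (adjusted p = 0.082). Lefty2, its neighbour on chromosome 1, had 11.54, 11.33 and 11.56 against 10.06, 10.18 and 9.49, a difference of -1.57 ± 0.34 (adjusted p = 0.01). The Lefty2 call was lost without the block (adjusted p = 0.088), without E3 (0.062) or without all arrays of replicate 1 (0.16) or replicate 3 (0.066). These were the only called genes of the 17 measured in the Nodal list, whose median was 0.11, and -0.06 under median scaling. Of all genes 4.51% were lower. Nodal itself differed by 0.40 ± 0.21, its co-receptor Tdgf1 by 0.11 ± 0.26 and Gdf3 by -0.33 ± 0.19, none past the threshold.

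In the FGF and ERK list 3 of 19 genes were lower and 0 higher, where 4.51% of all genes were lower. The median was 0.13, but 0.20, -0.08 and -0.09 in the pairs of replicates 1 to 3, and -0.06 without E3 or N1. The lower genes were the receptor gene Fgfr2 (-0.94 ± 0.20), the immediate early transcription factor gene Egr1 (-1.0 ± 0.23) and Dusp4, a phosphatase of ERK on chromosome 8 (-1.18 ± 0.31). The 2 dimmer Dusp4 probes gave -0.64 ± 0.32 and -0.21 ± 0.26, neither past the threshold. Without the block all 3 calls were lost (adjusted p = 0.26 to 0.69). Single arrays that ended a call were N1 for Fgfr2, either replicate 3 array for Egr1, and any replicate 1 or 2 array for Dusp4 (adjusted p up to 0.12).

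In the Wnt list 4 of 24 genes were higher and 0 lower, where 4.11% of all genes were higher. The median had no steady sign, at 0.06 in all, -0.04 under median scaling and 0.37, -0.09 and -0.05 in the pairs of replicates 1 to 3. Tcf7l2, a transcription factor of the pathway, had 7.22, 7.04 and 6.33 in EGFP -Tc and 8.16, 7.49 and 7.85 in Ncl-1 -Tc, a difference of 0.97 ± 0.19 (adjusted p = 0.006), and the receptor Fzd7 was higher by 0.86 ± 0.24. The other 2 encode secreted Wnt antagonists, Sfrp1 (1.12 ± 0.32) and Sfrp2 (1.00 ± 0.25), and Sfrp1 lies on chromosome 8. Without the block none of the 4 passed. The Fzd7 and Sfrp1 calls were lost without any 1 of the 6 arrays (adjusted p up to 0.13), and the Sfrp2 call without any but N1. The dimmer Sfrp1 probe gave 0.95 ± 0.30 (adjusted p = 0.070). In the LIF and BMP response list the STAT targets Pim3 (0.79 ± 0.18) and Cish (0.77 ± 0.19) were higher of 19 genes, 0 were lower and the median was 0.22. The Pim3 call was lost without E3 or N2, the Cish call without E1, E3 or N1, and both without the block (adjusted p = 0.76 and 0.6).

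Of 30 measured extracellular matrix and adhesion genes 7 were higher and 1 lower, with a median of 0.22, where 4.11% of all genes were higher and their median was 0.00. In the pairs of replicates 1 to 3 the median was 0.23, -0.07 and 0.51, and without the block 2 of the 30 were higher and 0 lower. Tgfbi, a secreted adhesion protein, had 6.71, 6.70 and 7.34 in EGFP -Tc and 8.69, 8.71 and 9.25 in Ncl-1 -Tc, a difference of 1.97 ± 0.22 (adjusted p = 0.00013). Nid1, the basement membrane linker nidogen, had 7.94, 8.46 and 7.81 against 9.75, 9.88 and 9.30, a difference of 1.58 ± 0.19 (adjusted p = 0.00026). In neither gene did the groups overlap, and their second probes were also higher, by 1.08 ± 0.30 and 0.91 ± 0.22. Ncam1, a neural cell adhesion molecule, was higher by 1.43 ± 0.25 (0.56 without the block), but its 2 dimmer probes gave 0.24 ± 0.29 and 0.31 ± 0.19. The integrin subunit gene Itgb5 was higher by 1.03 ± 0.20 (adjusted p = 0.92 without the block).

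The smaller differences of this list were less firm. The collagen chain genes Col5a1 (0.67 ± 0.18) and Col18a1 (0.55 ± 0.15) and the adhesion receptor gene Icam1 (0.57 ± 0.16) were higher, and the epithelial cadherin gene Cdh1, on chromosome 8, was lower (-0.74 ± 0.19). Leaving out 4 or 5 of the 6 arrays, 1 at a time, ended each of these calls (adjusted p up to 0.16), E3 and N1 among them for all 4. Without the block all 4 were lost (adjusted p of 0.26 or more). Of the 22 fibroblast and feeder cell markers 10 were measured, with Tgfbi the only call. Their summed signal was 5510 to 8328 in EGFP -Tc and 7689 to 8842 in Ncl-1 -Tc, and Col1a1, Col1a2, Col3a1, Postn and Dcn did not pass the detection filter in any of the 6 groups. The part of such cells in the matrix genes was not tested.

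Of 29 measured genes of oxidative stress and glutathione metabolism 5 were lower and 1 higher, and 4 of the 5 lie on chromosome 8. Of all genes 4.51% were lower, and of those on chromosome 8, 11.8%. The median was -0.05, and 0.04 without the genes of chromosomes 6, 8 and 11. Mt1, a metallothionein that binds zinc and copper, had 15.23, 15.01 and 14.21 in EGFP -Tc and 14.24, 13.75 and 13.09 in Ncl-1 -Tc. The groups overlapped, with replicate 3 lowest in both, and the difference within pairs was -1.12 ± 0.20 (adjusted p = 0.0031, and 0.24 without the block). Haem oxygenase, Hmox1 (-1.42 ± 0.35), the metallothionein Mt2 (-0.91 ± 0.22) and the quinone reductase Nqo1 (-0.81 ± 0.19) were lower too. These 4 lie in the stretch of chromosome 8 whose median was -0.35. Gstm5, a glutathione transferase of chromosome 3, was lower (-0.98 ± 0.20) and Gsta3 of chromosome 1 higher by 0.85 ± 0.22.

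All 6 of these calls were lost without the block (adjusted p = 0.1 to 0.83). Single arrays ended the calls of Hmox1 (either replicate 1 array, adjusted p up to 0.11), Mt2 (either replicate 1 array or N2), Nqo1 (all but E1 and N3) and Gsta3 (4 of the 6). Of 20 measured glutathione transferase genes, gathered after their values were seen, 1 was higher and 5 lower, beside 4.11% and 4.51% of all genes. The median of the 20 was -0.06. Of these, Gstt4 of chromosome 10 was at least 1.42-fold lower and was detected on no Ncl-1 -Tc array (adjusted p = 0.0013).

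Among homeobox and differentiation genes, 2 of 10 measured neuroectoderm genes were higher (Meis2 and Ncam1) and 2 lower (Crabp1 and Ina). For this and the lists below, 4.11% of all genes were higher and 4.51% lower, with a median of 0.00. Meis2, a homeobox cofactor of neural and limb development, had 9.44, 9.59 and 9.49 in EGFP -Tc and 11.23, 11.06 and 10.88 in Ncl-1 -Tc. Its difference was 1.55 ± 0.14 (adjusted p = 5.2e-05, and 0.00046 without the block), and both its other probes were higher by 1.24 and 1.20. Crabp1, a retinoic acid binding protein, was lower (-1.23 ± 0.17, adjusted p = 0.0006). The intermediate filament gene Ina was lower (-0.66 ± 0.20), a call lost without the block (0.67), without any array but N2, in a fit of only the 6 arrays (0.066) and in the authors' normalized table (0.13). Of 13 measured Hox and homeobox genes Meis2 was higher and Rhox6 and Rhox9 lower, with a median of 0.37. The 1 measured Y-linked gene, the translation factor gene Eif2s3y, differed by 1.44, 3.03 and -0.97 in the pairs of replicates 1 to 3 (fitted 1.17 ± 0.89, adjusted p = 0.50). In the list of 16 measured primitive endoderm genes the adaptor gene Dab2 (-1.58 ± 0.32) and the forkhead gene Foxq1 (-1.66 ± 0.42) were lower and the lipoprotein gene Apoe (1.04 ± 0.27) was higher, with a median of -0.39. The defining genes Gata4, Sox17 and Foxa2 did not pass the detection filter, and the summed signal of the list was 7529 to 13075 in EGFP -Tc and 8698 to 9521 in Ncl-1 -Tc.

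Without the block the calls of Dab2, Foxq1 and Apoe were lost (adjusted p = 0.087, 0.35 and 0.46). Without any 1 of the 6 arrays the Apoe call was lost, and without either replicate 1 array or E2 that of Foxq1. In the trophectoderm list 1 of 9 genes was lower, Fgfr2, with a median of -0.46, and Cdx2, Eomes and Elf5 did not pass the filter. In the mesoderm list 1 of 12 was lower, Meox1 on chromosome 11 (-0.61 ± 0.18), and brachyury (T), Mesp1 and Mixl1 did not pass the filter. In the primed epiblast list 1 of 11 was lower, the tight junction gene Cldn6 (-1.12 ± 0.28). The Meox1 call was lost without any array but N1, and the Cldn6 call without either replicate 1 array, E3 or N2, and both without the block (adjusted p = 0.35 and 0.12). Of 16 blood and endothelium markers 5 were measured and 0 called by their brightest probes, and Ptprc and Cdh5 did not pass the filter. The brightest Pecam1 probe of this list gave -0.38 ± 0.23 and missed the threshold. A dimmer Pecam1 probe was lower past it (-0.91 ± 0.20, adjusted p = 0.011), and another gave -0.55 ± 0.32 (adjusted p = 0.36).

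**Figure D5:**
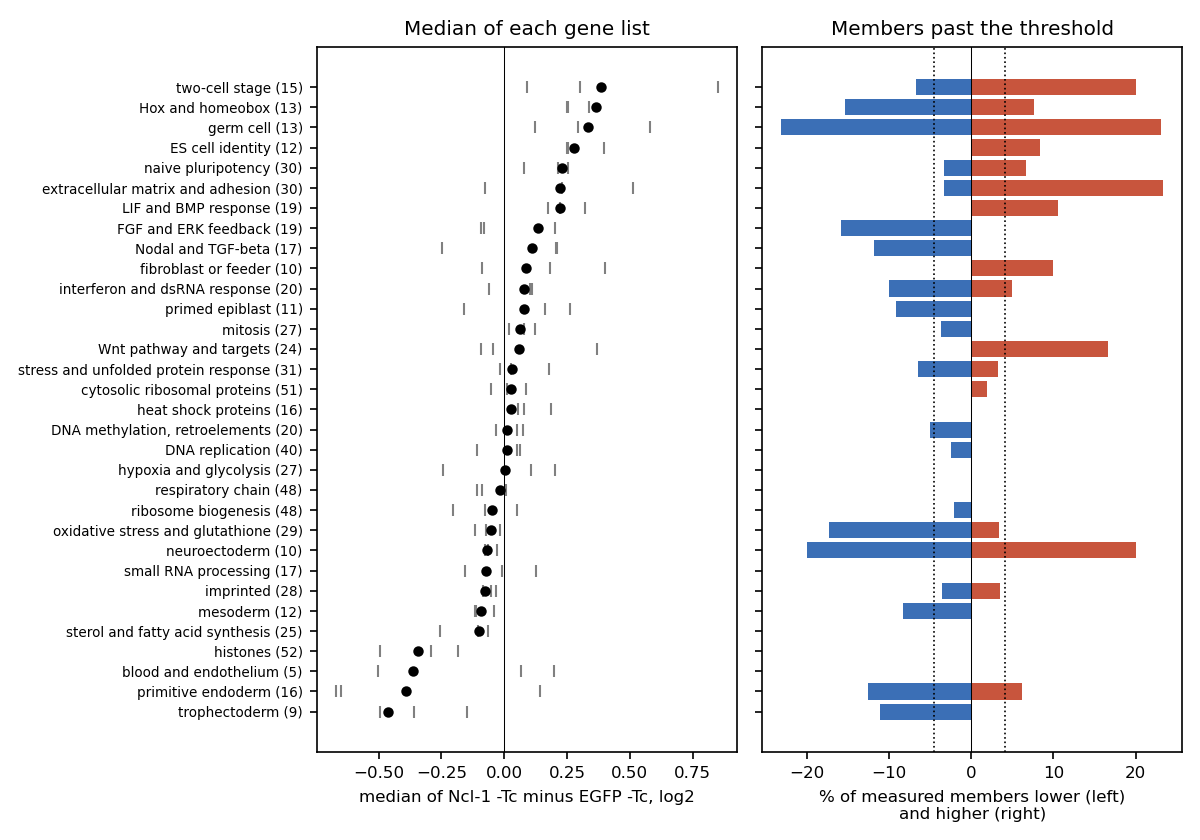
Left, median log2 difference between Ncl-1 -Tc and EGFP -Tc over the measured members of each gene list (black points), with ticks for the 3 replicate pairs and the number of measured members in brackets. Right, the percentage of members called higher (red) and lower (blue), with dotted lines at the 4.11% and 4.51% of all genes, and extracellular matrix and adhesion reaching 7 higher of 30.

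Lists of general cell functions had 0 to 3 calls each, and several of the called genes lie on chromosome 6 or 8. Of all genes 4.11% were higher and 4.51% lower. Of 40 DNA replication genes 1 was lower, the helicase subunit gene Mcm2 on chromosome 6 (-0.63 ± 0.14), and of 27 mitosis genes 1, the checkpoint gene Mad2l1 on chromosome 6 (-1.08 ± 0.19). Of 48 ribosome biogenesis genes 1 was lower, the endonuclease gene Nob1 on chromosome 8 (-0.48 ± 0.14), and of 31 stress and unfolded protein response genes 2 were lower, Pdia4 (-1.05 ± 0.20) and the folate enzyme gene Mthfd2 (-0.91 ± 0.22), both on chromosome 6, and 1 was higher, Dnajb9 (0.65 ± 0.18). Of 20 genes of DNA methylation and retroelement repression 1 was lower, the heterochromatin protein gene Cbx3 on chromosome 6 (11.52, 11.38 and 11.59 in EGFP -Tc, 10.23, 10.68 and 10.40 in Ncl-1 -Tc, difference -1.06 ± 0.17, adjusted p = 0.0015), while its dimmer probe gave -0.81 ± 0.30 (adjusted p = 0.12). Of 51 cytosolic ribosomal protein genes 1 was higher, Rpl39l, a testis-type paralog that no EGFP -Tc array detected (at least 2.88-fold, adjusted p = 0.013).

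Apart from Cbx3, these calls were lost without the block (adjusted p of 0.11 or more), and the Cbx3 call was lost without all arrays of replicate 1 (0.10). Single arrays ended those of Mcm2 (N1), Mthfd2 and Rpl39l (E3, N1 or N2), Dnajb9 (all but E3) and Nob1 (any of the 6). Of 28 imprinted genes Grb10 was higher and Commd1, also on chromosome 11, lower (-0.84 ± 0.19, lost without E1, N3 or the block). The dimmer Commd1 probe gave -0.68 ± 0.34 (adjusted p = 0.27). Of 20 interferon response genes Oas1g was higher (0.83 ± 0.23), Ifit2 was lower (-0.90 ± 0.25) and Usp18, on chromosome 6 and not detected on any Ncl-1 -Tc array, at least 1.27-fold lower. Each of those 3 calls was lost without the block and without 5 or 6 of the single arrays. The second probes of Oas1g (0.77 ± 0.23, adjusted p = 0.052) and Ifit2 (-0.45 ± 0.31, 0.46) missed the threshold. The Ifit2 call was also lost in the authors' normalized table (0.15). limma called 0 of 52 histone genes (median -0.34), 0 of 48 respiratory chain genes (-0.02), 0 of 27 hypoxia and glycolysis genes (0.00), 0 of 25 sterol and fatty acid genes (-0.10), 0 of 17 small RNA processing genes (-0.07) and 0 of 16 heat shock genes (0.03).

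The line differences were also read on the 6 induced arrays, which share no sample with the uninduced ones. There limma called 3857 genes (36.5%) between Ncl-1 +Tc and EGFP +Tc, 1967 higher (18.6%) and 1890 lower (17.9%), a contrast that adds the knockdown to the line difference. Of the 434 genes higher before induction, 287 (66.1%) were called higher with Tc, and of the 476 lower genes 326 (68.5%) were called lower. The median difference of the higher genes was 0.90 without and 0.83 with Tc, and that of the lower genes -0.84 and -0.83. The difference between the 2 states passed the test for 968 of all genes (9.17%), and for 63 of the higher and 73 of the lower genes. The higher and lower genes were called on the difference without Tc, which this test subtracts, so their counts are not independent of that choice. Ms4a6d differed by 2.61 ± 0.28 with Tc, Tmem181a by 1.65 ± 0.20, Nid1 by 1.96 ± 0.19 and Lefty1 by -2.25 ± 0.31, while Gpx2 differed by -0.13 ± 0.25, Grb10 by 0.02 ± 0.19 and Tgfbi by 0.48 ± 0.22.

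No gene passed the test between the Ncl-1 line and the second nucleolin line before induction, which does not show that the lines are alike. limma called 0 of 10557 genes between Ncl-1 -Tc and Ncl-2 -Tc, where 511 had an unadjusted p below 0.05 (64 without the block, and again 0 past the threshold). Against the same EGFP -Tc arrays, the Ncl-2 line had 1287 called genes (12.2%), 608 higher (5.76%) and 679 lower (6.43%). Side by side, and with shared controls, Ms4a6d differed from EGFP -Tc by 2.69 in Ncl-1 and 2.45 in Ncl-2, Tenm4 by 2.09 and 2.11, Dppa3 by -3.05 and -2.37, Lefty1 by -1.71 and -1.77, Meis2 by 1.55 and 1.35, and Zscan4c by 2.39 and 3.04. The largest gap among these genes was that of Dppa3, where Ncl-1 minus Ncl-2 was -0.69 ± 0.39 (adjusted p = 0.84).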

How the data were processed

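Total RNA of 18 samples, 3 in each of 6 groups, was measured on Illumina Mouse-6 v2.0 bead arrays. The deposited table gives, per the file headers, each probe's intensity on each array, not normalized between arrays, and its detection p-value; values below 0 show that background had been subtracted. GenomeStudio 2010.1 made them, per the submitters' processing notes. A second deposited table of intensity values, normalized by the authors by a method no source here names, served as an alternative. In it the array medians were 7.55 to 7.59 for replicates 1 and 2 but 9.95 to 9.99 for replicate 3. It was therefore not on 1 scale across replicate numbers, and its fit relied on the replicate block. Intensities were background-corrected with normexp using detection p-values (offset 16), quantile-normalized and put on the log2 scale with limma 3.58.1 in R 4.3.3. A probe was kept where 1 or more groups had detection p below 0.05 on all their 3 arrays (19154 of 45281), and the brightest probe stood for each of 10557 genes. Of all probes, 34885 had 1 gene symbol, 18 several and 10378 none, and 34807 symbols matched the RefSeq table of GRCm38.p6.

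limma fitted 6 group means with the replicate number as a block over all 18 arrays, with Benjamini-Hochberg adjustment over all genes and a threshold of 0.05. The error after ± is the standard error of this fit, and its median over genes was 0.208. The block rests on the replicate numbers of the labels. Deviations from the group means correlated at 0.298 to 0.958 in all 45 same-numbered pairs of samples. Between the 2 groups compared, the 3 same-numbered pairs had 0.532 to 0.918. The 6 pairs of other numbers had -0.841 to 0.721 (median -0.678), so some of these also correlated. Where no array of 1 group detected a gene, a bound is given as "at least N-fold", from the lowest signal of detected probes on each array.

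Named genes were Ncl, Npm1, Pou5f1, Sox2, Nanog, the 15 called genes of largest rise and of largest fall that did not overlap or moved 1 way in every pair, and from each gene list up to 4 called genes of smallest p, or the 1 of smallest p where none was called. The comparison and the lists were chosen with earlier results of these data known. Alternatives covered background, scaling, filter, probe choice, block and left-out arrays. A further gene list is not reported here.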

Additional observations from a re-analysis of the deposited data

Results flagged for a closer look

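For 17 of the 89 named genes the line difference with Tc differed from that without Tc by the interaction test of limma (adjusted p below 0.05). Over all genes 968 (9.17%) passed this test. Most named genes were chosen for their difference without Tc, which the interaction subtracts. That choice alone can favour interactions towards a smaller difference with Tc. The values here are the difference with Tc minus the difference without Tc, on the log2 scale, with 3 arrays in each of the 4 groups. It was positive for Dppa3 (2.37), Cldn6 (2.10), Gpx2 (1.86), Fgfr2 (1.19), Usp18 (1.19) and Mt1 (0.97), which were all lower in the uninduced Ncl-1 line. For Cldn6 the line difference went from -1.12 without Tc to 0.98 with Tc, and for Usp18 from -0.61 to 0.58. It was negative for Ina (-2.01), Meox1 (-1.69), Mthfd2 (-1.66), Mipol1 (-1.46), Ct55 (-1.44), Gstm5 (-0.92) and Cbx3 (-0.81), which were lower before induction and had a larger difference with Tc. It was also negative for Sfrp1 (-1.52), Tgfbi (-1.49), Grb10 (-1.49) and Meis2 (-0.81), which were higher before induction. The Sfrp1 difference was 1.12 without and -0.40 with Tc.

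Among the 2784 kept probes without a single gene symbol, which no comparison above uses, 221 passed the threshold between Ncl-1 -Tc and EGFP -Tc, 120 higher and 101 lower.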

How the results depend on the processing

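Counts are given as genes past the threshold, followed in brackets by genes higher and genes lower. Of 910 (434, 476), 104 (62, 42) passed without the replicate block, that is, without the pairing, 279 (85, 194) under median scaling, where 30.5% were higher, 1547 (746, 801) with both EGFP groups as control, and 2368 (1172, 1196) with array weights. Leaving out arrays gave 90 to 701 genes in all, 55 to 329 higher and 35 to 372 lower. Without the genes of chromosomes 6, 8 and 11, added after the data were seen, 469 passed, 124 of them lower. The other 10 settings gave 817 to 1031, among them 1023 when centred on the other chromosomes, where 33.4% were higher against 47.7%. The median difference, chromosome 6, stayed below 0 in every setting, at -0.40 without background correction, -0.37 with offset 50, -0.58 under median scaling, -0.51 in the authors' table, -0.099 without a detection filter, -0.49 with either other detection filter, -0.54 centred on the other chromosomes (added after the data were seen), and -0.484 to -0.433 with arrays left out. The median difference, chromosome 8, was -0.23 with offset 50, and under median scaling, no filter and centring it was -0.42, -0.10 and -0.35, and the median difference, chromosome 11, was -0.46, -0.17 and -0.40. With arrays left out these 2 ranged from -0.299 to -0.243 and -0.354 to -0.295. The cause of these changes was not tested. Of the 76 named genes that passed, 20 did so under every setting, 47 lost the call without the block, 35 without at least 1 single array, and 49, 45 and 18 without all arrays of replicate 1, 2 or 3. No called gene reversed, while Npm1 (-0.23 to 0.03) and Sox2 (-0.01 to 0.38), neither of them called, changed sign between settings. Of 34 gene lists, 17 changed the sign of their median under at least 1 setting. Low signal limits the dim genes, since 13 called genes were detected on no EGFP -Tc array and 22 on no Ncl-1 -Tc array.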
